A study of Equus caballus with 19 samples.

Results

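The baseline of the study is described here by the 8 untreated control libraries among its 19 RNA sequencing libraries. They were chosen by their labels alone, as the 5 control columns of the first batch and the 3 control columns of the second. Each control library came from a different equine tenocyte line, which is a culture of adult superficial digital flexor tendon cells from 1 horse, kept for 14 days in a 3D gel of bovine type I collagen with no cytokine added. The first batch held lines 1 to 5 and the second batch lines 6 to 8, and each group is n = 5 or n = 3 lines with 1 library a line. The same lines were also cultured with 1 nM IL-1β (8 libraries) and, for lines 6 to 8, with the same dose of IL-1β together with 100 ng/ml of IL1Ra, the natural antagonist of the IL-1 receptor (3 libraries), and these libraries are used only to show how the baseline compares with them. A line is 1 donor, so the spread given below is between donors together with their cultures.

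Tendon is built mainly from type I collagen fibrils that tenocytes secrete, crosslink and keep in repair, with small leucine-rich proteoglycans and glycoproteins such as COMP regulating fibril thickness. SCX and MKX encode transcription factors that direct tendon development and maintain the expression of these matrix genes, and their levels are known to fall in flat culture on plastic. A 3D collagen gel lets the cells pull against a matrix under tension, which is the reason such gels are used as a model of tendon.

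Normalised counts summed to between 43.4 M and 47.5 M per control library in the first batch and between 25.0 M and 28.7 M in the second, and each batch was normalised in a table of its own. Fold differences were therefore taken only within a batch, and the batches were compared by ranks or by percentages of a library's counts. Normalised counts of both are printed side by side, each on the scale of its own table. Of 29196 gene names, 14441 to 14778 had at least 10 normalised counts in a first-batch control and 15484 to 16011 in a second-batch control. Line 1 stood apart in the first batch by its ribosomal RNA gene RN18S, which took 1.28% of its counts against 0.315% to 0.373% in lines 2 to 5. Line 8 stood apart in the second batch by its HOX genes, described further on. The labels give it the same tissue as the other lines, its origin was not tested here, and every mean of the second batch includes it. Batch, tenocyte line and sequencing run cannot be told apart in any difference between the batches.

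The marker genes that define tenocytes were checked first. COL1A1 and COL1A2, the chains of type I collagen, were among the 3 genes with the most counts in both batches. SCX had 822, 1075, 2110, 1919 and 1516 normalised counts in lines 1 to 5, and 4720, 266 and 105 in lines 6 to 8. MKX had 792, 1171, 4654, 2969 and 1702 in lines 1 to 5, and 4059, 151 and 11.5 in lines 6 to 8. Both factors were therefore listed in all 8 lines, but line 8 was at the 30.7th percentile of genes for SCX and the 6.73th for MKX, whereas line 6 was at the 93.4th and 92.0th. TNMD, a membrane protein of mature tendon cells, was listed at 0 in 7 lines and at under 3 normalised counts in line 6. COL3A1 was not analysed here.

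The most abundant transcripts were those of matrix, cytoskeleton, translation and glycolysis. In the first batch COL1A2 had a mean of 696773 ± 140317 normalised counts (SD, n = 5 lines) and COL1A1 634135 ± 162707, followed by EEF1A1, a translation elongation factor, at 464617 ± 47320, and FN1, fibronectin, at 414465 ± 128810. SPARC, a collagen-binding glycoprotein, had 253818 ± 24074, and VIM, the mesenchymal intermediate filament vimentin, had 241415 ± 15434. Within this batch SPARC and VIM differed between the highest and the lowest line by no more than 1.21-fold and 1.15-fold, whereas FN1 differed 2.28-fold. The rest of the first 20 were the actins ACTG1 and ACTB, the glycolytic enzymes ENO1, PKM and GAPDH, the type VI collagen chains COL6A1 and COL6A2, COL5A1, the adhesion protein MXRA5, the actin crosslinker FLNA, the non-muscle myosin MYH9, RN18S and 2 LOC genes. RN18S and the LOC genes owed their places to line 1. Without that library RN18S moved from place 6 to 16, and the LOC genes LOC111771933 and LOC111771923 from places 8 and 17 to 22 and 41. The other 17 genes and RN18S stayed among the first 20. These orders are by counts, which grow with transcript length as well as with the number of molecules.

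**Figure D1:**
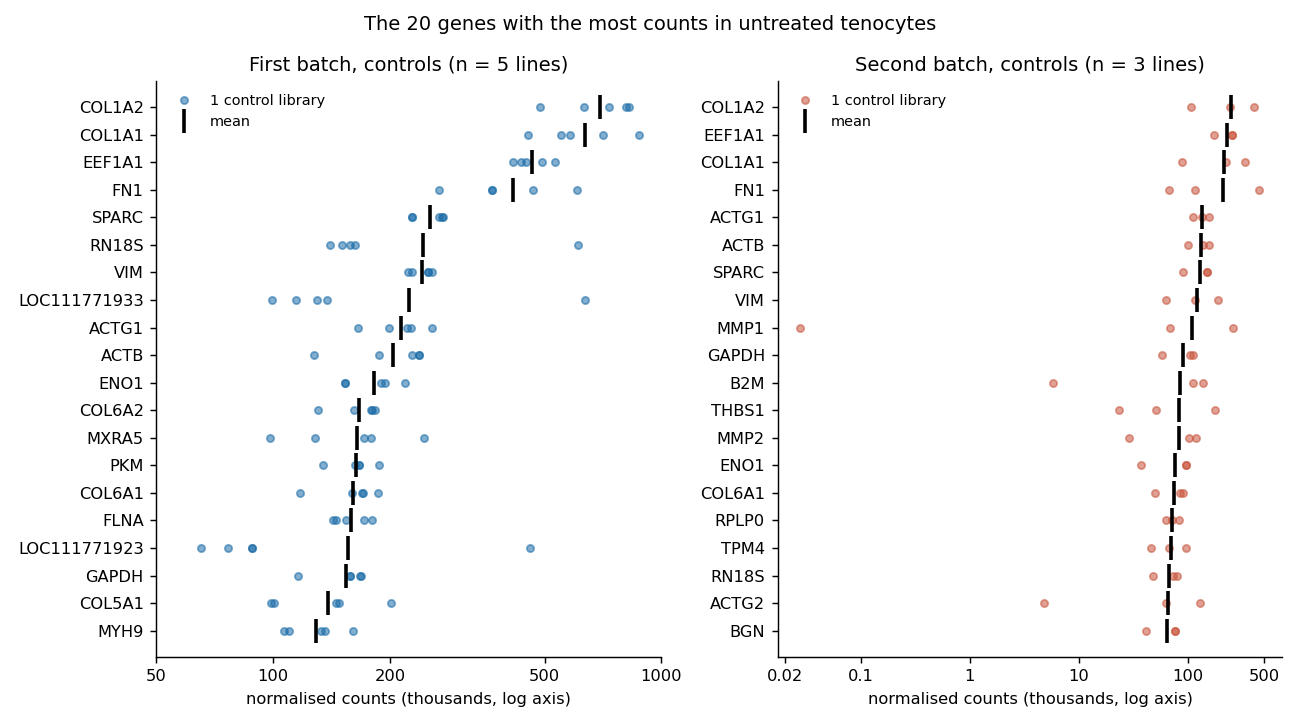
Normalised counts (in units of 1000, log axis) of the 20 genes with the highest mean in the control libraries of the first batch (left, 5 lines) and the second batch (right, 3 lines). Each point is 1 library and the bar is the mean. COL1A2 leads both batches, line 1 lies far to the right for RN18S at 609.2 units, and MMP1, B2M and ACTG2 in the second batch spread far more than the structural genes.

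COL1A2 also led the second batch, with 249505 ± 146909 (SD, n = 3 lines), then EEF1A1 with 226835 ± 45332, COL1A1 with 213927 ± 122594 and FN1 with 211814 ± 210512. Of the first 20 genes 12 were shared with the first batch, and of the first 100 genes 78. Matrix genes of the lists used here made up 18 (first batch) and 19 (second) of those 100, and contractile and cytoskeletal genes made up 10 in each. Genes that reached the first 20 only in the second batch were MMP1, MMP2, B2M, THBS1, RPLP0, TPM4, ACTG2 and BGN. MMP1, interstitial collagenase, had 28.0, 67946 and 260673 normalised counts in lines 6, 7 and 8, and B2M, the light chain of class I antigen molecules, had 5754, 138861 and 111061. Their places in the second batch thus rested on lines 7 and 8, with line 6 far below both.

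The structural collagens were high in every line and lower in lines 7 and 8. COL1A1 had 582578, 453618, 551091, 707720 and 875669 normalised counts in lines 1 to 5, and 332642, 221346 and 87792 in lines 6 to 8. COL1A2 had 630587, 487238, 730770, 824636 and 810637 in lines 1 to 5, and 400306, 241385 and 106825 in lines 6 to 8. The highest and lowest line differed 1.93-fold and 1.69-fold in the first batch, against 3.79-fold and 3.75-fold in the second. Of the 8 fibrillar collagen genes analysed, 6 had a mean of at least 10 in each batch. The cartilage collagen gene COL2A1 reached no more than 4.15 counts in any line and COL11A2 no more than 3.49. COL5A1 and COL5A2, chains of the type V collagen that starts fibril assembly, ranged from 98761 to 200753 and from 72237 to 92116 in the first batch. The 8 genes together took 2.52% to 4.50% of the counts of lines 1 to 5, and 3.04%, 1.97% and 0.997% in lines 6, 7 and 8.

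All 12 other collagens were above 1000 normalised counts on average in both batches, and COL6A1, COL6A2 and COL6A3, whose chains form the pericellular type VI network, had the most. COL6A1 had 186145, 169426, 117417, 159099 and 170584 in lines 1 to 5, and 83951, 90919 and 50163 in lines 6 to 8. COL12A1, a fibril-associated collagen, had 49519, 47668, 77192, 102956 and 102417 in the first batch, against 93007, 21834 and 11258 in the second. COL15A1, a basement membrane zone collagen, ran in another order, with 83337 and 72887 in lines 1 and 2, 40888 to 44161 in lines 3 to 5, and 33208, 48247 and 63445 in lines 6, 7 and 8. Line 6 was the lowest of its batch for COL15A1 and the highest for COL12A1.

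Among proteoglycans the abundant members were even and the scarcer ones were not. BGN, DCN and LUM, the small leucine-rich proteoglycans biglycan, decorin and lumican, differed between lines of the first batch by 1.46-fold, 2.11-fold and 1.65-fold, and by 1.86-fold, 1.86-fold and 1.57-fold in the second. ASPN, asporin of the same family, had 4147, 6105, 25655, 26607 and 19929 normalised counts in lines 1 to 5, and 35912, 1587 and 813 in lines 6 to 8. OGN, osteoglycin, had 1178, 1165, 12454, 6329 and 4597, and 6602, 464 and 250. In both genes lines 1 and 2 were the lowest of the first batch and lines 7 and 8 the lowest of the second. ACAN, the large proteoglycan aggrecan, ranged from 6340 in line 3 to 40668 in line 4, and was at 11864, 670 and 160 in lines 6 to 8. FMOD, fibromodulin, ranged from 2074 in line 1 to 15003 in line 3, and from 637 in line 8 to 7288 in line 6. PRG4, lubricin of gliding surfaces, was the exception, with 88.0 in line 3 against 7821 to 11605 in the other lines of the first batch, and 417, 3575 and 439 in lines 6 to 8. KERA, keratocan of the cornea, ranged from 2.59 to 21.1.

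Glycoproteins differed widely in how much they varied. FN1 and SPARC were among the most abundant genes of both batches. COMP, a pentameric protein that binds collagen fibrils and is plentiful in loaded tendon, had 5057, 18303, 104386, 44977 and 35427 normalised counts in lines 1 to 5, and 51392, 1069 and 131 in lines 6 to 8. That is a 20.6-fold difference between the highest and lowest line of the first batch and a 392-fold difference in the second. MATN2, matrilin 2, followed with 131, 131, 2914, 622 and 366, and 963, 29.8 and 9.66. THBS4, a thrombospondin of tendon and muscle, had 6.97, 15.7, 191, 46.4 and 41.6, and 632, 14.1 and 16.4, with line 6 the highest of its batch. THBS2, a thrombospondin that limits fibril growth, did not share the pattern, with 52486 to 90525 in the first batch, against 55091, 63967 and 62393 in the second. TNC, tenascin C, was highest in line 1 (120674) and lowest in line 3 (35007) of the first batch. CILP, a cartilage intermediate layer protein also found in tendon, stayed at or below 14 in all lines.

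**Figure D2:**
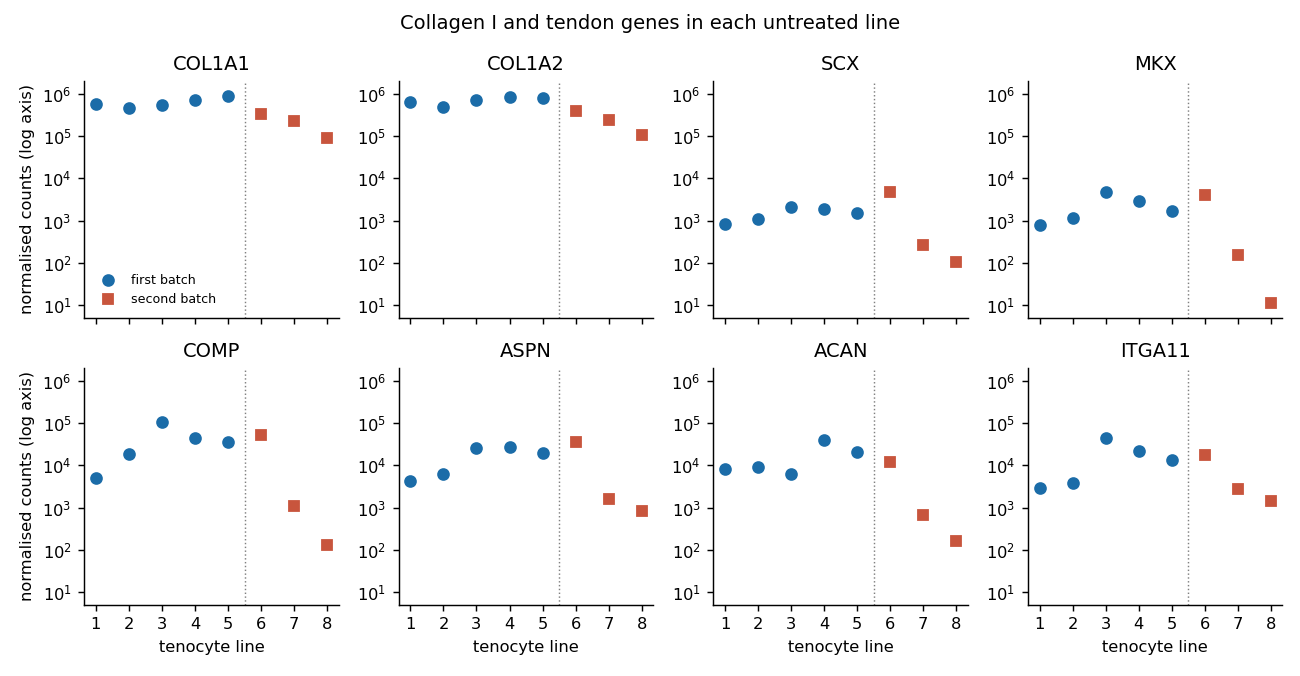
Normalised counts (log axis, the same range in each panel) of type I collagen and 6 tendon-related genes in each control library, lines 1 to 5 from the first batch (circles) and 6 to 8 from the second (squares), with the dotted line between tables that were normalised separately. COL1A1 and COL1A2 stay within 1 decade, while COMP, MKX, ASPN and ACAN fall by 1 to 3 decades from line 6 to line 8.

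Genes for collagen processing were the steadiest of the matrix lists within the first batch. P4HB, a subunit of prolyl hydroxylase, varied 1.11-fold over lines 1 to 5, with a mean of 76741 ± 3243 (SD, n = 5 lines), and SERPINH1, the collagen chaperone HSP47, varied 1.39-fold. LOX, the enzyme that starts collagen crosslinks, varied most, with 7078, 8375, 19410, 20727 and 15718 in lines 1 to 5, and 29026, 3760 and 2015 in lines 6 to 8. Line 8 was the lowest of its batch for all 13 processing genes, but also for abundant genes of other kinds such as EEF1A1, GAPDH and ENO1. Its 100 most abundant genes took 18.07% of its counts, against 23.45% and 21.13% in lines 6 and 7. The share of all genes that were lowest in line 8 was not counted.

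Matrix proteases and their inhibitors were all detected, and the 16 genes took 0.881% to 1.61% of counts in the first batch, against 0.925% to 2.17% in the second. MMP1 had 212877, 100940, 57.7, 12549 and 5045 normalised counts in lines 1 to 5, a 3690-fold difference between lines 1 and 3. MMP3, stromelysin 1, ran in nearly the same order, with 5841, 2023, 21.4, 364 and 210 in lines 1 to 5, and 174, 3785 and 9976 in lines 6 to 8. Within their batches lines 1, 2, 7 and 8 were thus the highest for MMP1 and MMP3, and lines 3 and 6 were the lowest for both. MMP2 (gelatinase A) and MMP14, its membrane-bound activator, differed by 1.92-fold and 1.95-fold in the first batch, and MMP13, another collagenase, ran from 8506 in line 2 to 37599 in line 3. TIMP2 and TIMP1, inhibitors of these enzymes, ranged from 44142 to 81426 and from 13753 to 66907 in the first batch.

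Of the 11 genes of the tendon identity list, 9 had a mean of at least 10 in each batch. SCX and MKX were the members given above. EGR1, an immediate-early factor that responds to load, ran opposite to both in the second batch, with 652 in line 6 and 8178 and 7741 in lines 7 and 8. FOXP4, a forkhead transcription factor, was even, at 4722 ± 496 (SD, n = 5 lines) and 2557 ± 244 (SD, n = 3 lines). Among regulators of other lineages, SOX9 of cartilage and tendon progenitors ranged from 1027 to 2274 and from 376 to 1056, and RUNX2 of bone from 780 to 1051 and from 531 to 1089. PPARG of fat, GATA4 of heart and the muscle factors MYOD1, MYF5 and PAX7 were under 10 counts in all 8 lines.

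Defining markers of other cell types were mostly at or near 0. Of the leukocyte list the common leukocyte antigen PTPRC, the T cell gene CD3E and the macrophage receptor CSF1R stayed under 3 counts in every line, and the 10 genes together took 0.000717% to 0.00544% of the counts of a library. CD14, a co-receptor for bacterial lipid, was the largest, with 1947 in line 5 and 1195 in line 6 and at most 17.4 in the other 6 lines. The 7 endothelial genes summed to at most 0.000179% of a library, and CDH5, which seals endothelial junctions, did not pass 4 counts. EPCAM of epithelium was listed at 0 in all 8 lines, but CDH1, E-cadherin, had 1413, 2738, 3904, 2535 and 2232 in lines 1 to 5, and 107, 62.0 and 10.3 in lines 6 to 8. The smooth muscle and pericyte genes were an exception. Of the 5 analysed, 4 had a mean above 1000 in the first batch, against 2 for the second. ACTG2, enteric smooth muscle actin, had 115128, 97478, 23593, 9482 and 26565 in lines 1 to 5, and 4836, 129343 and 63184 in lines 6 to 8. Other members ran in another order, since line 3 was the highest of its batch for 3 of the 5 genes and line 2 the lowest for 3. Among lines 6 to 8, line 7 was the highest for 3 genes and line 6 for 2. ADIPOQ, the fat cell hormone adiponectin, had 2736, 647, 305, 167 and 74.3 in lines 1 to 5, and 43.1, 6067 and 493 in lines 6 to 8, while the other 4 fat cell genes stayed at or under 9. Of the skeletal muscle list, line 8 was the highest for all 5 genes with a mean of at least 10 in its batch, with 209 for ACTA1, 135 for TNNT3, 80.4 for MYOG and 53.0 for CKM, and 43.4 for the Schwann cell factor SOX10. How many of all genes had each line highest or lowest was not counted. The part of these transcripts of other cell types in the other results was not tested, and in bulk RNA fewer cells of a kind and less RNA per cell cannot be told apart.

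Surface genes took a nearly constant share of each library. Their 36 members made up 1.11% of counts in line 2, the lowest of the first batch, and 1.18% in line 8, the lowest of the second, with a median SD of 0.32 and 0.57 on the log2 scale. ITGB1, the common integrin β1 subunit, had the most counts, 67767 to 103057 and 49090 to 78301. CD44, the hyaluronan receptor, had 26264, 24502, 29499, 30258 and 32495 in lines 1 to 5, and 20223, 16816 and 13773 in lines 6 to 8, and THY1, NT5E and ENG, used with it to define mesenchymal stromal cells, were at 4454 or more in all 8 lines. ITGA11, the α subunit of the collagen-binding integrin α11β1, varied most like the tendon genes, with 2896, 3793, 43822, 21968 and 13281, and 17117, 2787 and 1462. VCAM1, a leukocyte adhesion molecule, ranged from 206 in line 4 to 14945 in line 3. CDH13, T-cadherin, fell from 13527 in line 6 to 231 in line 8. NGFR, a nerve growth factor receptor, was the lowest of the list in the first batch and did not pass 21 there, with 96.6 in line 8.

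Of 25 growth factor and cytokine receptors, 24 had a mean of at least 10 in each batch, and KIT was listed at 0 in all 8 lines. PDGFRB and PDGFRA, the receptors for platelet-derived growth factors, ranged from 14450 to 28921 and from 9105 to 15172 in the first batch. IL1R1, the receptor through which IL-1β signals, had 6277, 3230, 3571, 3352 and 4261 normalised counts in lines 1 to 5, and 2062, 2494 and 5196 in lines 6 to 8, and IL1RAP, its accessory chain, had 135 to 268 and 125 to 163. Both receptor genes were thus listed in every untreated line. FGFR2, a fibroblast growth factor receptor, varied most among the receptors above 1000, from 2247 in line 1 to 17198 in line 3, and from 361 in line 8 to 4398 in line 6.

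All 14 contractile and cytoskeletal genes were above 1000 counts on average in both batches. ACTA2, smooth muscle actin of myofibroblasts, had 32110, 33197, 75351, 22547 and 30717 normalised counts in lines 1 to 5, and 49745, 19951 and 6616 in lines 6 to 8. Line 3 was the highest of its batch for 8 of the 14 genes and line 4 the lowest for 12. In the second batch line 6 was the highest for 11 and line 8 the lowest for 13. Line 8 was also the lowest there for EEF1A1, GAPDH and ENO1, which are not on this list. Proliferation genes set lines 1 and 2 apart in the first batch. MKI67, the cell cycle antigen Ki-67, had 3679, 3962, 692, 1102 and 1852 in lines 1 to 5, and 1994, 1242 and 1251 in lines 6 to 8, and line 2 was the highest of its batch for all 8 genes of the list. For both lists, the share of all genes that were highest or lowest in each line was not counted.

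Genes of class II antigen presentation and interferon response were among those that differed most between untreated lines. Among 11964 genes with a control mean of at least 100 in the first batch, the median SD over lines was 0.23 on the log2 scale, against 6.12 for CD74, 5.47 for CCPG1, 5.38 for DRA, 5.35 for PPWD1, 5.18 for GBP5, 5.11 for SELENBP1 and 4.97 for CXCL9. In the second batch the median was 0.28 over 11695 genes, and CD74 and CXCL9 led with 8.31 each, then GBP5 with 7.89, CXCL10 with 7.64 and DRA with 7.52. Lists for these functions were drawn up after these values had been seen, so they describe the pattern and do not test it. CD74, the invariant chain of class II molecules, had 20907, 1395, 0, 28.6 and 1.25 normalised counts in lines 1 to 5, and 0, 19305 and 24092 in lines 6 to 8. CIITA, the factor that switches class II genes on, had 1024, 167, 0.961, 4.94 and 0 in lines 1 to 5, and 0, 1261 and 1784 in lines 6 to 8. Line 1 was therefore the highest of its batch with line 2 next and lines 3 to 5 close to 0, and lines 7 and 8 were far above line 6.

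The chemokine gene CXCL10, induced by interferon, had 1465, 483, 0, 4.68 and 1.10 in lines 1 to 5, and 2.07, 23285 and 36860 in lines 6 to 8. B2M had 91218, 27930, 16197, 7001 and 8071 in the first batch. Of the 26 interferon-inducible genes with a mean of at least 10 in the first batch, line 1 was the highest for 24 and line 5 the lowest for 16. Of the 27 in the second batch, line 8 was the highest for 25 and line 6 the lowest for 27. How many of all genes had each line highest or lowest was not counted, here or for the mediators below. IFNG, the gene of interferon γ itself, had 7.78, 1.71, 0, 0 and 0 in lines 1 to 5, and 0, 42.8 and 25.7 in lines 6 to 8. Of 15 lymphocyte and natural killer genes, 2 had a mean of at least 10 in each batch, NCAM1, an adhesion molecule also of nerve and muscle, with 27.0 to 167, and NKG7, a granule protein, with 17.3 to 249. CD3D, GNLY, KLRD1, PRF1, GZMB and CD79A were listed at 0 in all 8 lines. The part of such cells in the result was not tested. The 8 inflammatory mediators ran partly in the same order. PTGS2, the inducible prostaglandin synthase, had 3054, 24113, 59.6, 632 and 1259 in lines 1 to 5, and 69.2, 2655 and 13856 in lines 6 to 8, and the chemokine gene CCL2 had at least 5630 in each of the 8 lines. Line 2 was the highest of its batch for 4 of the 5 mediators with a mean of at least 10, and line 6 the lowest of its batch for all 5. IL6 had 90.0 to 865 and CSF3 14.1 to 76.9, against at least 57342 and 19694 in the IL-1β libraries, and the highest value of IL1B, IL1A and TNF was 11.3.

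**Figure D3:**
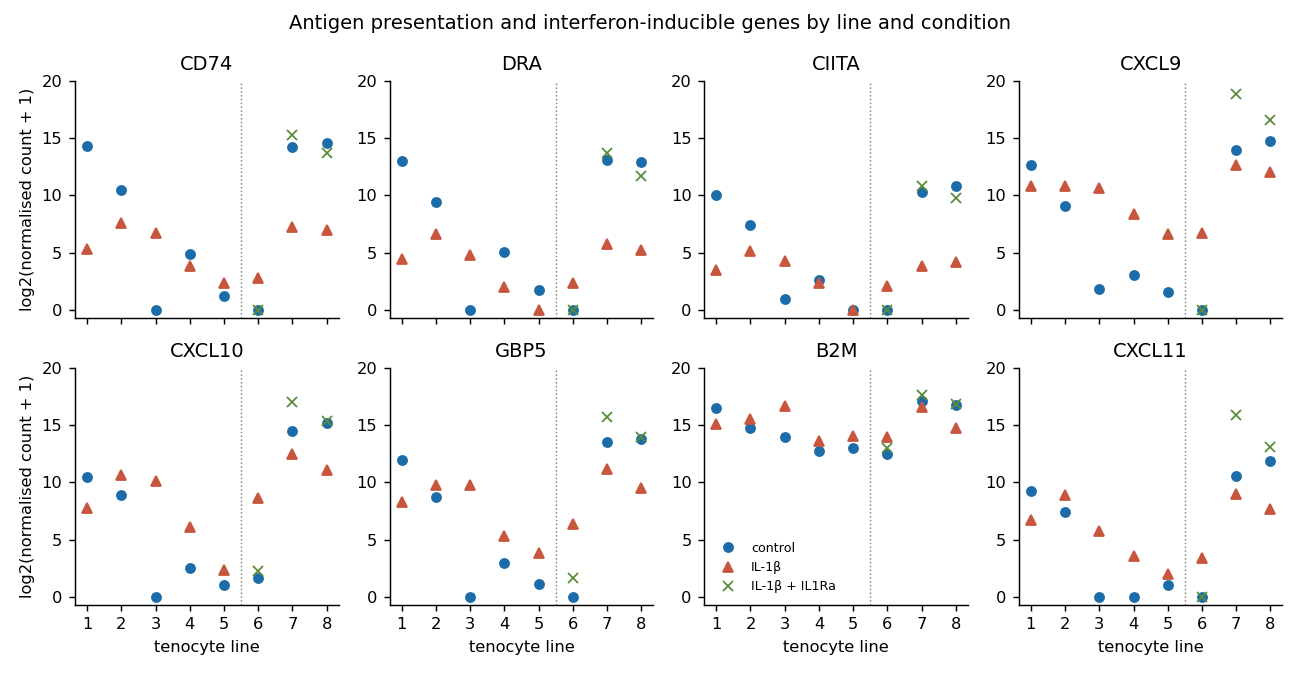
Levels, as log2(normalised count + 1), of 3 class II antigen presentation genes and 5 interferon-inducible genes for each tenocyte line in control, IL-1β and (lines 6 to 8) IL-1β + IL1Ra. In control, lines 1, 7 and 8 are high and lines 3 to 6 low for CD74, DRA and CIITA, and in lines 1, 7 and 8 the IL-1β libraries lie far below the controls for these 3 genes (CD74 20907 against 39.0 in line 1).

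The difference between lines in class II genes was smaller in the IL-1β libraries. CD74 had 39.0, 197, 105, 13.5 and 4.17 normalised counts with IL-1β in lines 1 to 5, and 5.84, 153 and 126 in lines 6 to 8. Lines 7 and 8 thus stayed above line 6, but in the first batch line 2 and not line 1 was the highest. CD74 was at 0, 40609 and 13401 with IL-1β and IL1Ra in lines 6 to 8. In the first batch CD74 was higher in control for 3 of 5 lines and did not pass the test (log2 difference 0.99, or −1.02 without line 1, adjusted p = 0.807, limma with Benjamini-Hochberg adjustment), and in the second it was higher in control for 2 of 3 (3.92, adjusted p = 0.859). Without line 6, which was at 0, lines 7 and 8 alone gave a difference of 7.27 (adjusted p = 0.00443 by limma). Line 6 was singled out by its CD74 value, so that fit cannot serve as a test of the gene. With all 3 lines and the line as a block, the adjusted p was 0.321 by limma. With all lines, none of the 5 class II genes passed in either batch by limma, with 0 at an unadjusted p under 0.05.

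Other genes among the 20 most variable of the first batch were CCPG1, PPWD1, SELENBP1, CD14 and PTPRJ, beside 7 LOC genes. CCPG1, a cell cycle and endoplasmic reticulum turnover gene, was listed at 0 in lines 1, 3 and 4 and at 4625 in line 5, and PPWD1, a spliceosome protein, was listed at 0 in lines 3 and 4 and at 823 to 917 in the other 3. An exact 0 for a gene that is high elsewhere can be a failed estimate of the read assignment. Of the 500 most variable genes, 39 (first batch) and 48 (second batch) were listed at 0 in at least 1 control, and of the first 20 these were 17 and 13, CD74 and DRA among them. SERPINB10, PCSK1, ITGBL1, HOXB6, SMC2_1 and SELENBP1 were also among the first 20 of the second batch, beside 4 LOC genes. ITGBL1, a β-integrin-like secreted protein, had 3954 normalised counts in line 6 and 0.945 and 2.59 in lines 7 and 8. Like COMP it was highest in line 6 of its batch and lowest in line 1 of the first, and in the first batch ITGBL1 had 224 and 676 in lines 1 and 2 and 610 to 2654 in lines 3 to 5.

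Among 11391 genes with a control mean of at least 100 in both batches, the 500 most variable of each batch were taken, and 320 genes (64.0% of each 500) were in both. Genes of the first batch's 500 had a median SD of 2.33 in the second batch, against 0.28 for all genes. Line 6 was the lowest of its batch for 233 of the 320 and line 8 the highest for 162, and in the first batch line 1 was the highest for 173 and line 3 the lowest for 148. These counts were not made over all 11391 genes, and the 320 were picked for their spread between these same lines. Without line 6, which left the second-batch SD to lines 7 and 8 alone, 140 genes were shared. That SD is a noisier measure, and the cause of the lower number was not tested. In the first batch 230 of the 500 most variable genes (46.0%) had the same highest line in control and with IL-1β, and in the second batch 306 (61.2%). Over all 11964 genes of the first batch with a mean of at least 100 this was 41.3%, and over the 11695 of the second it was 47.1%.

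HOX genes encode transcription factors that keep a record of where in the body a cell came from, and in the limb the last genes of the HOXA and HOXD clusters mark its distal part. Line 8 differed from the other 7 in this code. HOXA13 had 631, 474, 1037, 709 and 581 normalised counts in lines 1 to 5, and 217, 293 and 2.53 in lines 6 to 8. HOXD13 had 2160, 2346, 4105, 3449 and 2981 in lines 1 to 5, and 1948, 753 and 6.87 in lines 6 to 8. HOXB6 was listed at 0 in lines 1 to 7 and had 2454 in line 8, and HOXC6 had 4554 in line 8, 56.0 in line 7, 23.2 and 15.7 in lines 1 and 2, and fewer than 10 in lines 3 to 6. The highest value of any HOXB gene in lines 1 to 7 was 5.05, for HOXB2 in line 6, whereas 6 of 9 had at least 43.5 in line 8. Across all gene names, each table on its own scale, 11 had at least 100 counts in line 8 and under 10 in the other 7 controls, and for lines 1 to 7 the same count was 0 or 1. The 9 of these that were not LOC genes were HOXB2, HOXB3, HOXB5, HOXB6, HOXB7, HOXC4, the muscle genes CASQ2 and TNNT3, and the complement factor CFD.

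The code was the same in the treated libraries of these lines. HOXB6 had 1781 and 1737 normalised counts in the IL-1β and the IL-1β + IL1Ra library of line 8 and at most 0.971 in the other 9 treated libraries. HOXD13 had 7.51 and 2.14 in those libraries of line 8 and 913 to 3166 in the others. None of the HOX genes tested passed the test between control and IL-1β by limma in either batch (4 at an unadjusted p under 0.05 in the first batch, against 0 in the second), although with the tenocyte line as a block 3 HOXD genes were higher in control in the first batch, as were 10.2% of all genes. Factors of limb type also differed between lines. PITX1, which specifies the hindlimb, had 426, 669, 0.929, 525 and 384 in lines 1 to 5, and 4.10, 18.6 and 129 in lines 6 to 8, and TBX4, its partner, was listed at 0 in line 8 and had 97.8 to 597 in the other lines. Lines 3, 6 and 7 were low for PITX1 and lines 3 and 7 were the highest of their batches for TBX5, a factor of the forelimb, with 1819 and 2184. From which limb a line was taken is not given in the sources used here.

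**Figure D4:**
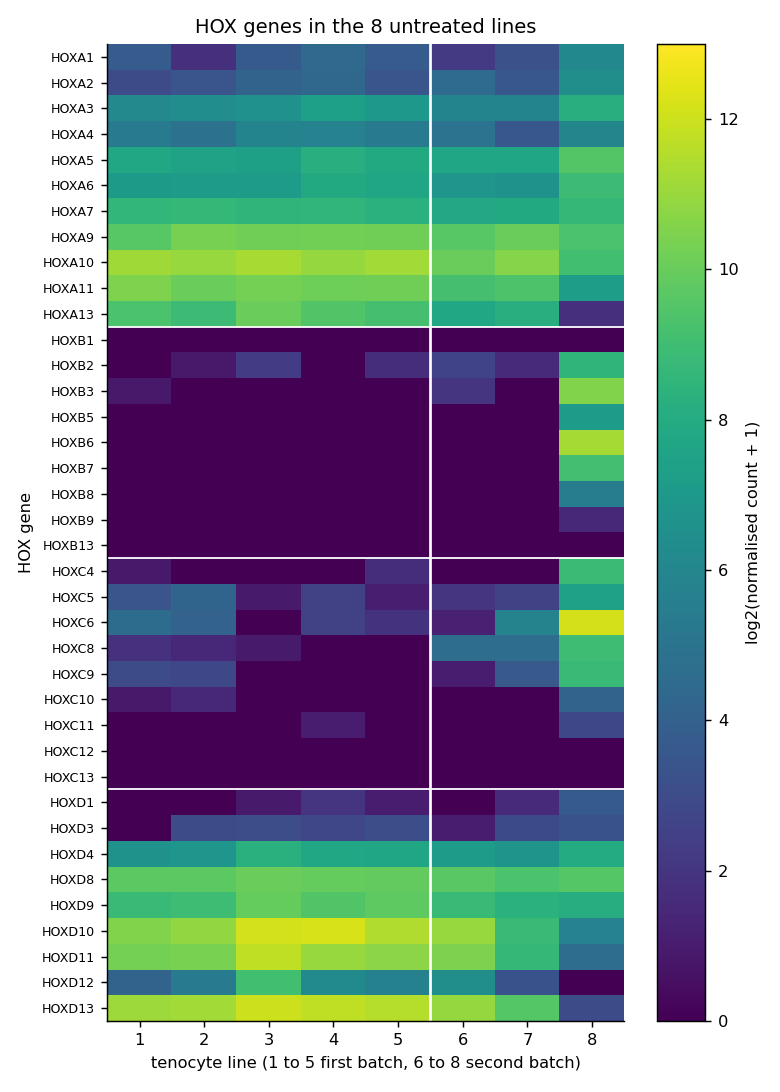
Heat map of log2(normalised count + 1) for 38 HOX genes, ordered by cluster and number, in the 8 control libraries, with white lines between batches and clusters. Line 8 is bright for HOXB2 to HOXB8 and HOXC4 to HOXC9 where the other lines are dark, and dark for HOXA13 and HOXD13 where the others are bright.

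The order of genes by level was nearly the same in both batches. Over 16501 genes with a control mean of at least 10 in either batch, the batch means had a Spearman correlation of 0.964, given as a description because genes are not replicates and the libraries share the tissue and the assay. Pairs of libraries correlated at 0.951 to 0.989 within the first batch (10 pairs), 0.888 to 0.970 within the second (3 pairs) and 0.887 to 0.963 between batches (15 pairs). Pairs from different batches were thus about as alike as pairs within the second batch. Each library of the first batch was closest to another of the first. Lines 7 and 8 were closest to each other (0.970), while line 6 was closest to line 3 (0.951) and farthest from line 8 (0.888). The median gene differed by 3.63 percentile points between the medians of the batches, and 83.2% of genes by less than 10.

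Some genes had ranks that did not overlap between the batches. Of 16501 genes, 212 were higher in all 3 second-batch controls than in all 5 first-batch ones by at least 20 percentile points of the medians (1.28% of genes), and 49 were lower by as much (0.297%). Those that were higher included 123 LOC and 24 microRNA genes, and 166 of the 212 were under 10 counts in every first-batch control. The shares of such genes among all 16501 were not counted, so these numbers do not set the 212 apart. MIR9105 had 0.137 to 27.7 normalised counts in lines 1 to 5, and 3158, 3427 and 2903 in lines 6 to 8. MIR9023, the natural killer receptor gene LY49F, FOXB2 and MIR9036 were listed at 0 in all 5 first-batch controls and at 257 to 2117 in the second. KLK6, a serine protease, SERINC4, CFAP157 and FAM69B also ranked higher, with at most 28.1 in the first table and at least 322 in the second. NUDT6, whose transcript lies antisense to FGF2, had 121 to 212 in lines 1 to 5, and 489, 2925 and 7720 in lines 6 to 8. Of the 212 genes, 171 (80.7%) met the same rule in the IL-1β libraries of the same lines, in which MIR9105 ran from 6.08 to 21.5 in the first batch, against from 2959 to 4794 in the second. How many of all genes met the rule in those libraries is given in the closing section.

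Of the 49 genes that ranked lower in the second batch, 23 were LOC genes. CDH1 led, with a median percentile of 77.5 in the first batch, against 25.7 in the second. TGFB1, the growth factor TGF-β1 that drives matrix synthesis and was chosen for mention after its value was seen, had 5652, 4477, 2053, 2967 and 4333 normalised counts in lines 1 to 5, and 777, 1170 and 772 in lines 6 to 8, with median percentiles of 87.4 and 60.4. TLL1, a protease that trims procollagen, had 3698 to 5988 in the first batch, against 1111, 910 and 37.8 in the second, and was chosen in the same way. EPDR1, an ependymin-related protein, CDH3, P-cadherin, and the cytokine IL33 also fell in rank, as did RRP15, OPN1SW, TTC9, NLGN1, CCNG2 and PLPPR3. RRP15, a ribosome assembly protein, and CCNG2, a cyclin, were listed at 0 in all 3 second-batch controls. Of the 49 genes, 21 (42.9%) met the same rule in the IL-1β libraries. Leaving out line 6 raised the count of non-overlapping genes from 261 to 799, and asking for a mean of at least 100 lowered it to 92.

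**Figure D5:**
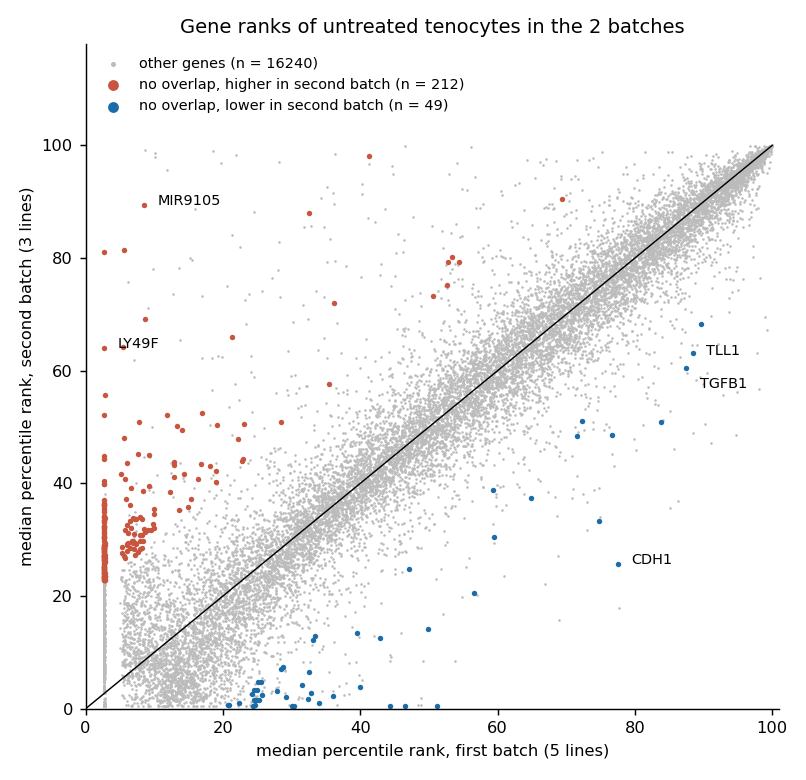
Median percentile rank of each of 16501 genes in the controls of the first batch (5 lines) and of the second (3 lines), with the line of equal rank. Coloured points are genes whose ranks do not overlap between batches and whose medians differ by at least 20 points, 212 higher and 49 lower in the second batch, and most of the higher ones lie at the left edge, close to 0 in the first batch.

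None of the 6 fibrillar or 12 other collagens of the lists was among these genes, nor any of the proteoglycan, glycoprotein, tendon identity or contractile genes. The rule was met by 1.28% (higher) and 0.297% (lower) of all genes, so finding none in lists this short is near that share. Medians of some members still shifted by more than 20 points, with ranks that overlapped, such as PRG4 (−46.1), MKX (−34.5) and MFAP4 (−33.4). Of all list members only CDH1 and 1 surface gene, CSPG4, the pericyte proteoglycan NG2, met the rule. CSPG4 had 3419, 5255, 3695, 7579 and 7049 in lines 1 to 5, and 2030, 1119 and 105 in lines 6 to 8. The tendon genes that separated lines 7 and 8 from the rest did not meet the rule because line 6 ranked with the first batch, with COMP at the 99.8th percentile in line 6 and the 67.2th and 32.6th in lines 7 and 8.

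To place the baseline against the treated cultures, each batch was tested between control and IL-1β by limma, after a log2 transformation with 1 added and with Benjamini-Hochberg adjusted p-values, and a gene was called DE at an adjusted p under 0.05 and a log2 difference of at least 1. In the first batch 12.8% of 14719 genes were DE (7.9% higher and 4.91% lower in control), and in the second 0.341% of 16705 (0.0718% higher and 0.269% lower). Of the 51 tested genes of the 4 matrix lists in the first batch 35 were DE with the control higher and 1, VCAN (versican), with the control lower. By list these were 4 of 6 fibrillar collagens, 8 of 12 other collagens, 6 of 11 proteoglycans and 17 of 22 glycoproteins, with median log2 differences of 1.73 for the fibrillar collagens, 1.40 for the other collagens, 2.03 for the proteoglycans and 2.76 for the glycoproteins, against 0.00 for all genes. ASPN differed by 7.73 (SE 1.08, adjusted p = 0.000729) and OGN by 7.06 (SE 1.27, adjusted p = 0.00279), both higher in control in 5 of 5 lines. The 4 matrix genes that varied most between untreated lines of this batch, PRG4, MATN2, THBS4 and COMP, differed by 6.19, 4.94, 3.16 and 4.08 (adjusted p = 0.00714, 0.0105, 0.0396 and 0.0132), each higher in 5 of 5 lines, and the calls of MATN2 and COMP were lost without line 5 (adjusted p = 0.0563 and 0.0685) and that of THBS4 without line 3, 4 or 5 (highest adjusted p = 0.152). These fits left out the pairing by line. With the line as a block and all 5 lines, the adjusted p-values of the 4 genes were 0.00142, 0.000832, 0.0282 and 0.000276 by limma.

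The steady lists differed less. Of 13 collagen processing genes 7 were DE with the control higher, of 14 contractile genes 5, of 35 surface genes 8, and of 24 receptors 2, and their median log2 differences were 1.12, 0.73, 0.38 and 0.20. The surface genes and the receptors also held 2 and 1 that were DE with the control lower. Over all genes 7.9% were DE with the control higher, which is near the share of the receptors. Proteases went the other way, with 5 of 16 lower in control and ADAMTS1 alone higher, and a median of −0.63. For MMP13 the log2 difference, control minus IL-1β, was −4.36 (SE 0.54, adjusted p = 0.000353), lower in control in 5 of 5 lines. The ADAMTS1 call was lost without line 1, 2, 4 or 5 (log2 difference 0.90 without line 2). Of the 9 tendon identity genes tested 5 were higher in control, SCX, MKX, EGR2 and FOXP4 among them, and 1 was lower, EYA1. CDH1 was also higher in control, by 4.75 (SE 0.81, adjusted p = 0.00213), in 5 of 5 lines.

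In the second batch the same lists held no DE gene with the control higher, and the fit without a block had 0 of 52 matrix genes DE by limma, with 17 at an unadjusted p under 0.05. SOX5, SDC4, PTGER4 and IL6 were the list members lower in control there, with log2 differences, control minus IL-1β, of −3.37, −2.27, −3.73 and −9.11 (adjusted p = 0.0468, 0.0275, 0.0364 and 0.0155), each lower in 3 of 3 lines and also lower and DE in the first batch. These calls were lost without line 7 or without line 8, fits in which no gene was called. Once each tenocyte line was a block, 2.59% of all genes were higher in control in the second batch. Of the lists 4 of 12 other collagens, 5 of 11 proteoglycans, 7 of 23 glycoproteins, 3 of 9 tendon identity genes, SCX among them, and 7 of 36 surface genes were higher there by limma. The same fit had 0 of 6 fibrillar collagens and 0 of 13 collagen processing genes higher, with 1 and 2 of these 2 lists at an unadjusted p under 0.05 without the block. SCX differed there by 3.18 and COMP by 3.69 (adjusted p = 0.0223 and 0.0228 with the block, 0.653 and 0.810 without), and both were higher in control in 3 of 3 lines.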

How the data were processed

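RNA from tenocytes in 3D collagen gels was sequenced after TruSeq stranded mRNA preparation at 2 providers, and which provider ran which batch is not given in the sources used here. The authors used Salmon for transcript abundance and tximport for gene totals, and deposited one signal table per batch, normalised counts from DESeq2 (version 1.36, in R 4.2.1), so that values compare within a table. Of the deposited names 25 had turned into dates, and 25057 of 29196 (85.8%) matched RefSeq's gene table, which is of another assembly, so no coordinates or transcript lengths were used. COL3A1 and KCNJ8 were not analysed here, and some other list members are not reported here.

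Control and IL-1β libraries were compared within each batch with limma 3.58.1 (R 4.3.3, Python 3.11.15 for the rest) on log2(normalised count + 1), p-values being adjusted by Benjamini-Hochberg, for genes of at least 10 in at least 5 libraries (first batch) or 3 (second batch), the second-batch fit holding all 3 treatments. Percentile ranks were taken over 16501 genes with a control mean of at least 10 in either batch. Variation was the SD of log2(normalised count + 1) over lines for genes with a control mean of at least 100. Reads could not be recovered from the normalised values, so no count model was run. Of the low values in the controls, 64.0% to 72.6% lay close to a whole number of reads. Close meant within 0.1 at most, with a tighter limit for the lowest values. The size of a read was chosen in each library to give the most matches. The summed counts limit the precision of each library. In the main fit a p-value sets the difference between control and IL-1β against the spread between lines. That fit leaves out the pairing of libraries by line. With the line as a block, the difference is set against the spread that remains within lines. A value of 0 in 1 library can be a failed estimate.

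Genes were named by rule as the 20 most abundant and the 20 most variable of each batch, the 10 each way with the largest rank shift, LOC names counted only, and examples from the gene lists chosen by level, marker status or difference to IL-1β. Other examples were chosen after their values were seen. The members and the lists were chosen with earlier results of these data known, and the class II, interferon, lymphocyte, HOX, inflammatory and limb lists were added after the levels had been seen. Libraries of a batch share the tenocyte line with the treated libraries, so a fit with the line as a replicate block was an alternative, beside other pseudocounts, filters, scalings and leaving out each line.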

Additional observations from a re-analysis of the deposited data

Results flagged for a closer look

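For 149 levels in the 5 first-batch controls it was asked whether 1 library lay far from the other 4, by the gap to its nearest neighbour as a share of the whole range, and chance alone flags about 1 in 20. Line 1 was the far library for RN18S (gap 0.899 of the range), LOC111771923 (0.844), LOC111771933 (0.823) and EGR2 (0.725), all high. Line 3 was the far library for PRG4 (0.919), PITX1 (0.906), GAPDH (0.815) and NCAM1 (0.812), all low, with 88.0, 0.929, 115727 and 27.0 normalised counts. CILP had a gap of 0.744 with line 5 lowest at 1.09 counts. CKM, HOXB3 and TNF had gaps of 1.0, but each rested on less than 1 count in 1 library.

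HOXD13 and CDH3 were higher in control than with IL-1β in 5 of 5 lines of the first batch (counted as 5.0) and lower in control in each of the 3 lines of the second, and the difference between the batches was not tested. In the second batch CDH3 was near the floor, with 0, 3.79 and 0.867 counts in control against 5.14 to 18.8 with IL-1β. HOXD13 was also very low in line 8 in both conditions. Neither gene passed in the first batch (HOXD13 log2 difference 0.39, adjusted p = 0.200, and CDH3 1.51, adjusted p = 0.0523, limma).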

How the results depend on the processing

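In the first batch 1885 genes differed between control and IL-1β, 4078 by adjusted p alone, and 1374 to 1729 when 1 line was left out. In the second batch 57 differed, 865 with the line as a replicate block and 34 with the control and IL-1β libraries only, and leaving out 1 line gave 0 to 339 (0 by limma without line 7 or line 8, 339 without line 6, with 1351 and 762 genes at an unadjusted p under 0.05 in the fits that called 0). Scaling to the library sum gave 22 higher and 35 lower in control there, against 12 and 45. The block raised the first-batch count to 2386. CD74 in the first batch ran from −1.02 without line 1 to 2.92 without line 3. SOX5, SDC4 and PTGER4 in the second batch lost their calls with the control and IL-1β libraries only (adjusted p = 0.0951, 0.0559 and 0.0538), and SOX5 also with no filter (0.0518) and with scaling to the library sum (0.0525). Non-overlapping ranks counted 261, 1186 at 10 points, 66 at 30 points, 92 at a mean of at least 100, 299 in the IL-1β libraries (chosen after seeing the data) and 252 to 799 with 1 line left out. Genes among the 500 most variable of both batches numbered 140 to 327, among the 100 most abundant 73 to 81, and those with the same highest line 232 to 285, over fits without 1 line, and the rank correlation was 0.944 to 0.969. The same highest line was counted for 230 with all lines of the first batch. Fewer lines could be the highest when 1 was left out, and the matching share over all genes is not given here. The cause of these changes was not tested. Scaling each library to its sum moved no printed mean control level by more than 1 SD. Levels per kb of coding length were not run, for want of lengths.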
